A study of Mus musculus with 12 samples.

Results

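Transcripts of 7 ligand genes of the tumour necrosis factor (TNF) superfamily were followed in mouse bone marrow-derived macrophages: Tnf, Tnfsf9, Tnfsf15, Tnfsf10, Tnfsf12, Tnfsf13b and Tnfsf4. Their probes were taken as every probe whose symbol in the platform annotation is one of these genes. This gave 11 probes of 45281 on the Illumina bead array and 7 genes of 19057 with a symbol of their own. Of these, 9 probes of 6 genes were above background (a detection p under 0.05) on at least 3 of the 12 arrays and were tested. The probe of Tnfsf12 and 1 of the 3 probes of Tnfsf13b did not pass.

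Ligands of this superfamily are mostly type II membrane proteins that act as trimers, on the cell surface or after a protease has cut them free, and each binds 1 or a few receptors of the matching TNF receptor superfamily. Macrophages are a main source of Tnf, whose transcript is made quickly after Toll-like receptor 4 meets lipopolysaccharide (LPS), a component of the wall of Gram-negative bacteria, and is then removed quickly by RNA-binding proteins. Several other ligands of the family costimulate T or B lymphocytes, and some can trigger cell death.

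The macrophages were grown from the marrow of C57BL/6 mice aged 9-16 weeks with 20% L929-conditioned medium, a source of the growth factor Csf1, over 8-9 days. In each of 4 groups 3 samples were measured, with 1 array per sample. The groups were cells given PBS (phosphate-buffered saline) with no LPS, PBS followed by LPS, HDL followed by LPS and cyclodextrin followed by LPS. HDL, the high-density lipoprotein particle of blood, was given at 300 ug/ml for 24 h. Cyclodextrin, a ring of sugars that draws cholesterol out of cell membranes, was given at 4% for 4 h. After a wash, cells of the LPS groups received 10 ng/ml LPS over 6 h. HDL is spelled nHDL in the labels, which give no contact time for PBS, so that compound, contact time and handling cannot be told apart. Whether the 3 samples of a group came from separate mice or cultures is not given, and the p-values below then measure only the spread between these samples. In such bulk RNA, fewer cells of a type and less RNA per cell cannot be told apart.

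Each array had 33.3% to 38.6% of its probes above background. Arrays of 1 group correlated at r = 0.989 to 0.996 over the tested genes, and arrays with and without LPS at 0.858 to 0.883. All 7 macrophage markers on the array (Adgre1, Cd14, Csf1r, Fcgr1, Itgam, Lyz2 and Mertk) were above background on all 12 arrays, with a summed normalized signal of 56814.5 to 60303 without LPS, 84139.8 to 86865 in PBS LPS cells, 77163 to 83433 after HDL and 82795 to 83698 after cyclodextrin. With LPS in PBS cells the mean log2 signal of Fcgr1 went from 10.16 to 13.48 and that of Cd14 from 13.24 to 14.40. Mertk went from 9.65 to 10.89 and Adgre1 from 12.99 to 13.37. Lyz2 (15.03 and 15.08) and Csf1r (12.29 in both) changed little, and Itgam went from 7.97 to 7.79. Of 8 T and NK cell markers, Cd3e, Cd3g, Cd3d, Cd8a, Cd4, Nkg7 and Ncr1 were above background on none of the arrays and Prf1 on all of them, and the list summed to 594 to 656 without LPS, 707 to 773 with PBS, 555 to 607 with HDL and 653 to 888 with cyclodextrin under LPS. The neutrophil list (S100a8 and S100a9 above background on all arrays, Ngp on some, Elane and Mpo on none) summed to 569 to 666 without LPS, 859 to 929.9 with PBS, 819.5 to 1128 with HDL and 907 to 1115 with cyclodextrin. The mast cell and basophil list summed to 253 to 274, 142 to 149.96, 129 to 131 and 129.6 to 171 in the same order. Its marker Kit was above background only without LPS. Its marker Fcer1a was above background on 2 arrays without LPS, 1 PBS LPS array, 0 HDL arrays and 2 cyclodextrin arrays. The dendritic cell list summed to 143 to 153, 169 to 186, 153 to 174 and 141 to 155, with Itgae above background on all PBS LPS and HDL arrays and on no other. The fibroblast list summed to 131 to 139, 150.3 to 179, 166 to 171 and 133 to 144, with Dcn likewise above background on all PBS LPS and HDL arrays and on no other. Of 3 B cell markers on the array, Ms4a1 and Pax5 were above background on none and Cd79b on all, and the list summed to 163 to 169, 132 to 159, 119.7 to 146 and 108 to 149. Each sum includes the signal of markers not above background, so it is not a measure of cell content. The part of these marker levels in the results was not tested. Normalization set the same distribution on all arrays. Scaling each array by its median instead shifted the median gene by -0.42 on the log2 scale with LPS, against -0.14 in the main setting, and moved the share of higher calls from 36.6% to 22.3% with LPS, from 41.9% to 56.7% under HDL, from 46.7% to 17.1% under cyclodextrin and from 44.6% to 8.65% for cyclodextrin against HDL.

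The promoter windows of the ligands are shown because LPS signalling can act through NF-kB and interferon-regulated factors, whose part here was not tested. The ligands with a listed window include genes that were and were not called with LPS. RefSeq's table for GRCm38.p6 lists a window of 250 bases before to 50 bases after the start for 4 of the 7 genes: Tnf, Tnfsf10, Tnfsf15 and, with 2 windows, Tnfsf13b. Capitals mark matches on either strand to 4 motifs. The NF-kB type is GGG followed after 5 free bases by CC. The interferon type is a tandem repeat of the word GAAA with 2 free bases in the middle. The shorter interferon type is AANNGAAA, which every match to the longer one contains. The TATA box is TATAAA. Positions are counted from the start site, on the gene's strand. The windows lie at chr17:35201958-35202257 (minus strand, Tnf), chr3:27316827-27317126 (plus strand, Tnfsf10), chr4:63745010-63745309 (minus strand, Tnfsf15) and chr8:10006383-10006682 (plus strand, Tnfsf13b, the downstream of its 2 windows).
Tnf: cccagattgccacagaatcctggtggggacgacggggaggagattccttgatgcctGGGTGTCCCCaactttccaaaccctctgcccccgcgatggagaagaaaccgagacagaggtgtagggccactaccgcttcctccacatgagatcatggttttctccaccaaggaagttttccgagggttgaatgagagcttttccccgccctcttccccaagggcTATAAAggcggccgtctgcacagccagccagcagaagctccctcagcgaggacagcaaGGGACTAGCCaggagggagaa
Tnfsf10: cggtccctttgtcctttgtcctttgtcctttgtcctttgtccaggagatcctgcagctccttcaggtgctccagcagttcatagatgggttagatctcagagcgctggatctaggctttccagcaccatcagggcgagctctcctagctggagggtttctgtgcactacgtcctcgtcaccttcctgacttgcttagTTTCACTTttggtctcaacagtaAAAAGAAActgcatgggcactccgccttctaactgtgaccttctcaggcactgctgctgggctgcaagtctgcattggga
Tnfsf15: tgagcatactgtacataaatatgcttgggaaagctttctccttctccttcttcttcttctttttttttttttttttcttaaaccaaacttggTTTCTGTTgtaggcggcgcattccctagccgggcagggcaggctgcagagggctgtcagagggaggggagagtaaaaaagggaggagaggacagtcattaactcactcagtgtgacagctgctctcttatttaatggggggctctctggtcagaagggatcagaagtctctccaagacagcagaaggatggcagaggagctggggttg
Tnfsf13b: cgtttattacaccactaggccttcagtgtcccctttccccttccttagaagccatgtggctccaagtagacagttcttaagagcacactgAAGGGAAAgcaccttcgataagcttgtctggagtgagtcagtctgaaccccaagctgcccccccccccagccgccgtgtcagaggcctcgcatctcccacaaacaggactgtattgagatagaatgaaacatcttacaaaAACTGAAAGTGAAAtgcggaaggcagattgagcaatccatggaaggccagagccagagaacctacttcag

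Among 32851 RefSeq promoter windows of 300 bases, the NF-kB type occurred in 50.8%, the interferon type in 3.44%, the shorter interferon type in 23.9% and TATAAA in 13.6%. The Tnf window held GGGTGTCCCC from -194 to -185, a match on both strands, GGGACTAGCC from 29 to 38, and TATAAA from -29 to -24. The Tnfsf13b window held GAAAGTGAAA from -16 to -7, and 3 matches to the shorter interferon type. Of these, AAGTGAAA from -14 to -7 is part of the longer match by definition, and AACTGAAA from -20 to -13 overlaps it. The upstream Tnfsf13b window, at chr8:10006217-10006516, held 0 matches to the interferon type and 1 to the shorter type, AAGGGAAA from 6 to 13. The Tnfsf10 window held 2 matches to the shorter motif, TTTCACTT from -53 to -46 and AAAAGAAA from -30 to -23. The Tnfsf15 window held 1, TTTCTGTT from -158 to -151. The NF-kB type and TATAAA had 0 matches in the Tnfsf10 and Tnfsf15 windows and in both Tnfsf13b windows. The longer interferon type had 0 in the Tnf, Tnfsf10 and Tnfsf15 windows. A match describes letters and does not show that a factor binds there.

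LPS was compared with no LPS in PBS cells to ask which ligands the stimulus changed. With LPS, 5 of the 6 tested ligand genes rose (limma, Benjamini-Hochberg adjusted p under 0.05) and Tnfsf13b was not called. Of the 9795 genes tested, 60.6% were called in this comparison and 22.2% were called higher. Because 3 of these ligand genes passed the filter only through arrays with LPS, their part of the count follows from the filter.

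Tnf encodes the cytokine TNF, which acts through the receptors Tnfrsf1a and Tnfrsf1b. Its brightest probe read 8.94, 9.57 and 8.81 on the log2 scale on the 3 arrays without LPS and 14.00, 13.91 and 13.89 on the 3 PBS LPS arrays. All arrays with LPS lay far above all arrays without it. The mean intensity was 772 ± 212 (SD, n = 3) without LPS and 15290 ± 767 with LPS, and the log2 fold change was 4.83 ± 0.16 (SE, adjusted p = 2.67e-12). The other Tnf probe gave 4.92 ± 0.15 (adjusted p = 1.01e-12 over all probes, of which 57.8% were called). The Tnf signals under LPS are stored with their decimal mark in the deposited table.

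Tnfsf10 encodes TRAIL, a ligand that can trigger death of the cells it binds. Its brightest probe read 4.73, 4.97 and 5.28 without LPS, where 1 of 3 arrays was above background, and 9.95, 9.82 and 9.96 in PBS LPS cells. The groups did not overlap. The transcript was at least 25.2-fold higher with LPS (adjusted p = 2.72e-12). The bound sets the mean with LPS against, per array, whichever is higher, the signal of the probe itself or the dimmest signal that still passed as above background there. The second probe of Tnfsf10, above background on 0 of 3 arrays without LPS, was at least 8.63-fold higher (adjusted p = 1.02e-12 over all probes).

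Tnfsf4 encodes OX40 ligand, a costimulator of T cells that have met antigen. It read 4.62, 4.52 and 4.50 without LPS, where no array was above background, and 8.85, 8.86 and 9.16 in PBS LPS cells. It was at least 13.2-fold higher with LPS (group means 8.96 and 4.54, adjusted p = 5.14e-12).

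Tnfsf9 encodes 4-1BB ligand, which costimulates T cells through Tnfrsf9. It was above background on all arrays, at 6.75, 7.42 and 7.10 without LPS and 8.73, 8.43 and 8.59 in PBS LPS cells. The groups did not overlap, and the log2 fold change was 1.49 ± 0.18 (adjusted p = 4.06e-06). Tnfsf15 encodes TL1A, the ligand of the receptor Tnfrsf25. It read 4.49, 4.50 and 4.63 without LPS, never above background, and 6.28, 6.16 and 6.16 with LPS. It was at least 1.95-fold higher with LPS (group means 6.20 and 4.54, adjusted p = 6.05e-08).

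Tnfsf13b encodes BAFF, a survival factor for B cells that myeloid cells make. Its brightest probe read 7.38, 7.37 and 6.98 without LPS and 7.64, 7.54 and 7.40 in PBS LPS cells, and the groups did not overlap, as was the case for 65.2% of all tested genes. The log2 difference was 0.28 ± 0.16 (adjusted p = 0.150), and it was -0.18 (adjusted p = 0.358) when each array was scaled by its median, so no direction is given. With array weights it was 0.48 and was called (adjusted p = 0.00309), and with any 1 array left out it lay between 0.15 and 0.35 and was not called. Before normalization the mean intensity was 257 ± 40.7 without LPS and 211 ± 10.2 with it. The second passing probe read 0.21 ± 0.13 (adjusted p = 0.201 over all probes), and the third probe was above background on 0 of 3 arrays in either group. Tnfsf12 encodes TWEAK, the ligand of Tnfrsf12a. Its only probe read between 4.38 and 4.59 on the 12 arrays, with detection p-values of 0.547 to 1, and was never above background.

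**Figure D1:**
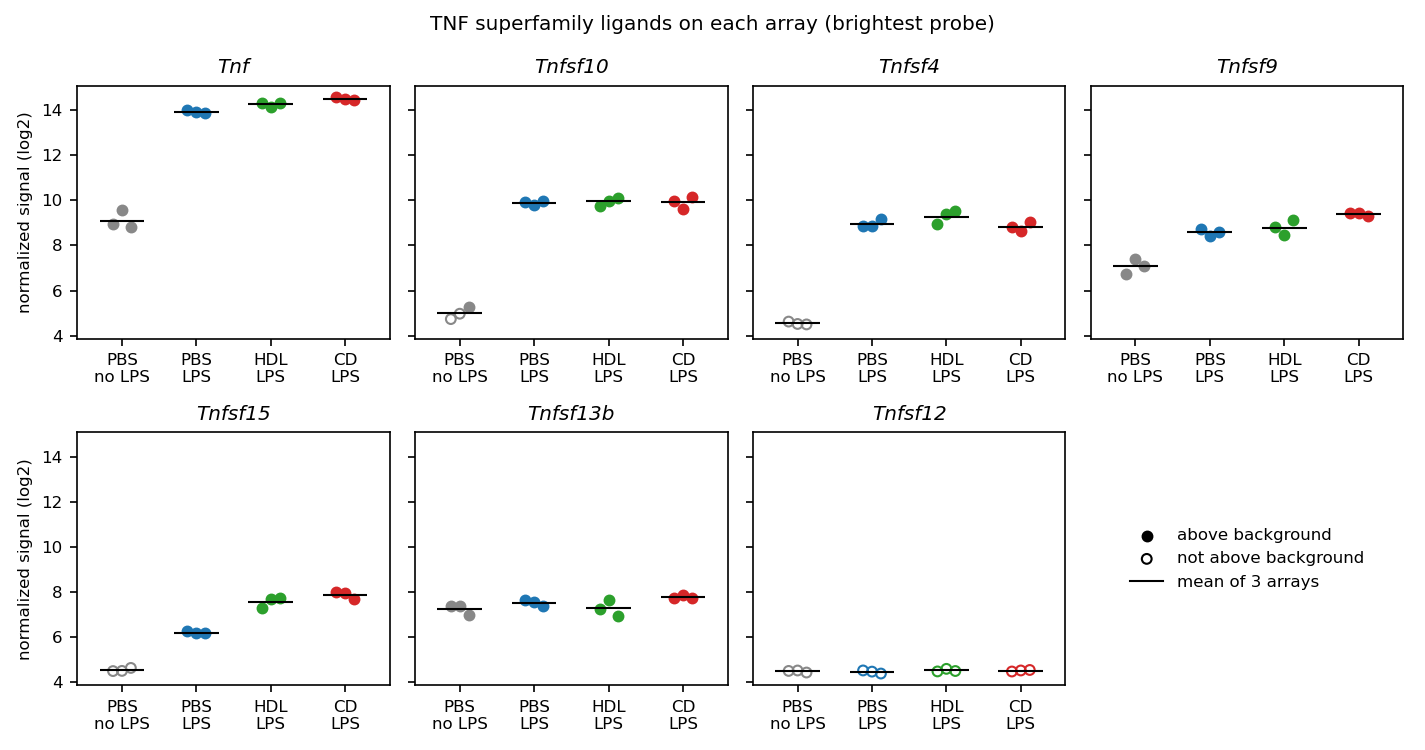
Normalized log2 signal (y axis) of the brightest probe of each ligand gene on the 12 arrays, by group (x axis, CD for cyclodextrin), with 1 point per array, open where the probe was not above background, and a line at the mean of 3 arrays. Tnf, Tnfsf10, Tnfsf4, Tnfsf9 and Tnfsf15 lie higher on all arrays with LPS, and Tnfsf15 lies higher again after HDL or cyclodextrin.

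HDL before LPS was compared with PBS before LPS. Tnfsf15 was called, and it was higher with HDL. It was 1 of the 6 tested ligand genes, against 1.90% of all genes called and 0.796% called higher. Tnfsf15 read 7.29, 7.68 and 7.74 after HDL against 6.28, 6.16 and 6.16 after PBS. Every HDL array lay above every PBS LPS array. The mean intensity was 229 ± 12.8 against 115 ± 3.30, and the log2 fold change was 1.37 ± 0.13 (adjusted p = 0.000226). This call held in all 23 alternative settings, with log2 fold changes of 0.87 to 1.51. On the PBS LPS arrays the probe was above background but close to it, with detection p-values of 0.00107 to 0.00321.

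Tnf read 14.33, 14.17 and 14.32 after HDL against 14.00, 13.91 and 13.89 after PBS. The groups did not overlap, as for 26.0% of all tested genes. The log2 difference of 0.34 ± 0.16 was not called (adjusted p = 0.275, 95% confidence interval 0.00 to 0.68), and it was not called in any of 23 alternative settings (adjusted p of 0.0932 to 0.601). The arrays without LPS differed more among themselves for Tnf (SD 0.41) than those with LPS (0.05 to 0.09). With the 9 LPS arrays alone, a fit added after this was seen, its standard error fell to 0.09 and its adjusted p was 0.0932. The other Tnf probe read 0.22 ± 0.15 (adjusted p = 0.492 over all probes, of which 0.858% were called).

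Tnfsf4 read 8.94, 9.40 and 9.52 after HDL, and the lowest of these lay among the PBS LPS arrays. Its difference was 0.33 ± 0.15 (adjusted p = 0.283). Tnfsf9 read 8.82, 8.46 and 9.12, a difference of 0.22 ± 0.18 (adjusted p = 0.550). Tnfsf10 read 9.78, 9.99 and 10.10 and Tnfsf13b 7.24, 7.65 and 6.95, each across the PBS LPS range, with differences of 0.05 ± 0.16 (adjusted p = 0.907) and -0.25 ± 0.16 (adjusted p = 0.452). Without HDL array 18 the difference of Tnfsf10 was -0.023, so that no direction is given for it.

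Cyclodextrin before LPS was compared with the same PBS LPS arrays, so its values and those of HDL share their control samples. Tnfsf15, Tnfsf9 and Tnf were higher with cyclodextrin, 3 of the 6 tested ligand genes, against 5.07% of all genes called and 2.37% called higher. Tnfsf15 read 8.01, 7.96 and 7.67, above every PBS LPS array, with a mean intensity of 253 ± 28.3 and a log2 fold change of 1.68 ± 0.13 (adjusted p = 2.47e-05). Its call held in all 23 alternative settings, with log2 fold changes of 1.10 to 1.79 against the same PBS LPS signals close to background.

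Tnfsf9 read 9.42, 9.45 and 9.32 after cyclodextrin against 8.73, 8.43 and 8.59 after PBS. The groups did not overlap, and the log2 fold change was 0.82 ± 0.18 (adjusted p = 0.0160). The call was lost without PBS LPS array 8 (0.74, adjusted p = 0.0712) or without cyclodextrin array 22 (0.80, adjusted p = 0.0524), and held in the other 21 settings.

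Tnf read 14.57, 14.52 and 14.48 after cyclodextrin, above every PBS LPS and every HDL array. In these comparisons the groups did not overlap for 26.5% and 24.4% of all tested genes. Before normalization the same Tnf probe overlapped between HDL and cyclodextrin. Its intensity on HDL array 16 was 23739, above every cyclodextrin array (23256, 22562 and 21206). The log2 fold change against PBS was 0.59 ± 0.16, a 1.51-fold difference that passed the threshold narrowly (adjusted p = 0.0467). The call was lost in 11 of 23 alternative settings, with adjusted p-values of 0.00491 to 0.128 and log2 fold changes of 0.45 to 0.62. It was lost when a PBS LPS array was left out (0.105, 0.128 and 0.113 without arrays 7, 8 and 9), an HDL array (0.0760, 0.0531 and 0.0672 without 16, 17 and 18) or a cyclodextrin array (0.121, 0.0906 and 0.0996 without 22, 23 and 24). It was also lost with median scaling (0.124) and without the detection filter (0.0826), and held with the 9 LPS arrays alone (0.00584). Fitted by probe, where 4.18% of all probes were called, both Tnf probes missed the threshold, at 0.59 ± 0.16 (adjusted p = 0.0540) and 0.52 ± 0.15 (0.0693).

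The remaining ligands were not called with cyclodextrin. Tnfsf13b read 7.73, 7.86 and 7.72, above every PBS LPS array, as did 26.5% of all tested genes on 1 side or the other, and differed by 0.25 ± 0.16 (adjusted p = 0.455). Tnfsf4 read 8.84, 8.64 and 9.03, a difference of -0.12 ± 0.15 (adjusted p = 0.733). Tnfsf10 read 9.97, 9.60 and 10.16 on its brightest probe, with a difference of 0.00 ± 0.16 (95% confidence interval -0.34 to 0.35, adjusted p = 0.995). Its second probe read 0.31 ± 0.12 (adjusted p = 0.164 over all probes), and the sign of the first turned with median scaling (-0.13), so no direction is given.

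Cyclodextrin set against HDL gave 0 calls among the 6 tested ligand genes in limma, against 2.77% of all genes. At an unadjusted p under 0.05, 4 of them and 1807 of all 9795 genes passed. Contact times differ between these treatments, so the values stand side by side. For Tnfsf9 cyclodextrin lay above HDL by 0.60 ± 0.18 (95% confidence interval 0.22 to 0.98, adjusted p = 0.0875), with no overlap between the arrays, as for 24.4% of all tested genes. This passed in 5 of 23 alternative settings, those without background correction (0.0311), with another background model (0.0306), with an offset of 50 (0.0429), with the authors' processed values (0.0316) and with array weights (0.0307).

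Tnfsf13b lay above HDL by 0.49 ± 0.16 (0.14 to 0.84, adjusted p = 0.125), and passed when HDL array 17 was left out (0.67, adjusted p = 0.0397). Its second passing probe read 0.54 ± 0.13 and narrowly missed the threshold (adjusted p = 0.0510 over all probes, of which 2.12% were called). Tnfsf4 lay below by -0.45 ± 0.15 (-0.78 to -0.12, adjusted p = 0.133), and passed with median scaling (-0.64, adjusted p = 0.0174). The intervals of Tnfsf15 (0.02 to 0.60, adjusted p = 0.236), Tnf (-0.09 to 0.59, adjusted p = 0.441) and Tnfsf10 (-0.39 to 0.30, adjusted p = 0.914) do not show that the treatments act alike on these genes. The second probe of Tnfsf10 read 0.29 ± 0.12 (adjusted p = 0.202 over all probes) and the other Tnf probe 0.30 ± 0.15 (0.321).

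**Figure D2:**
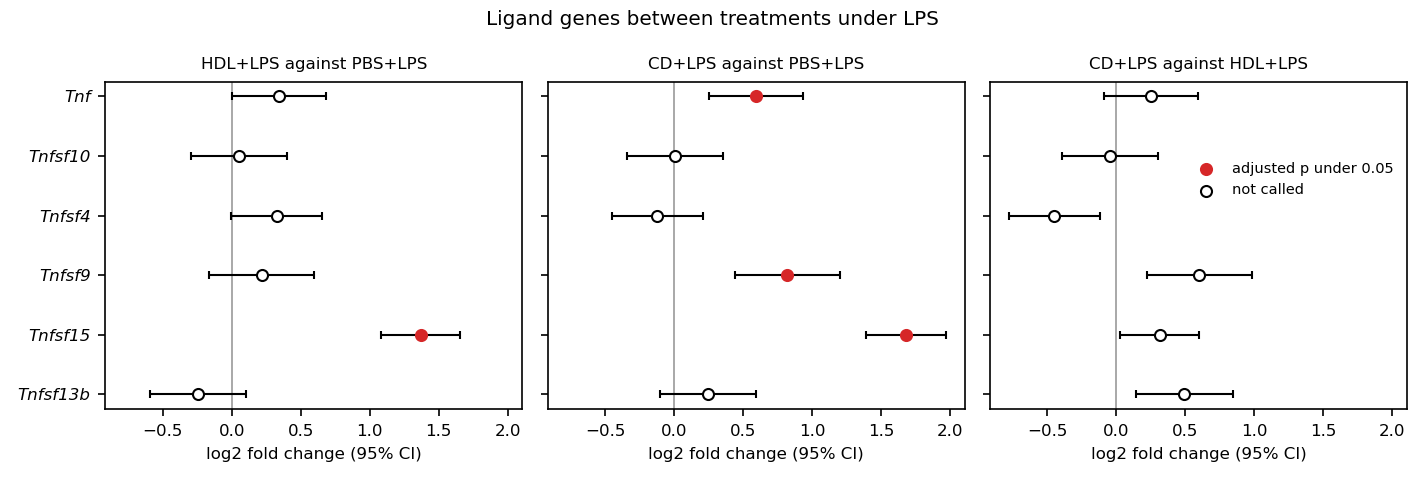
Log2 fold change with 95% confidence interval (x axis) of the 6 tested ligand genes (y axis) in the 3 comparisons among LPS groups, filled where the adjusted p was under 0.05 (CD, cyclodextrin). Tnfsf15 stands at 1.37 under HDL and 1.68 under cyclodextrin, and no filled point appears for cyclodextrin against HDL.

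**Figure D3:**
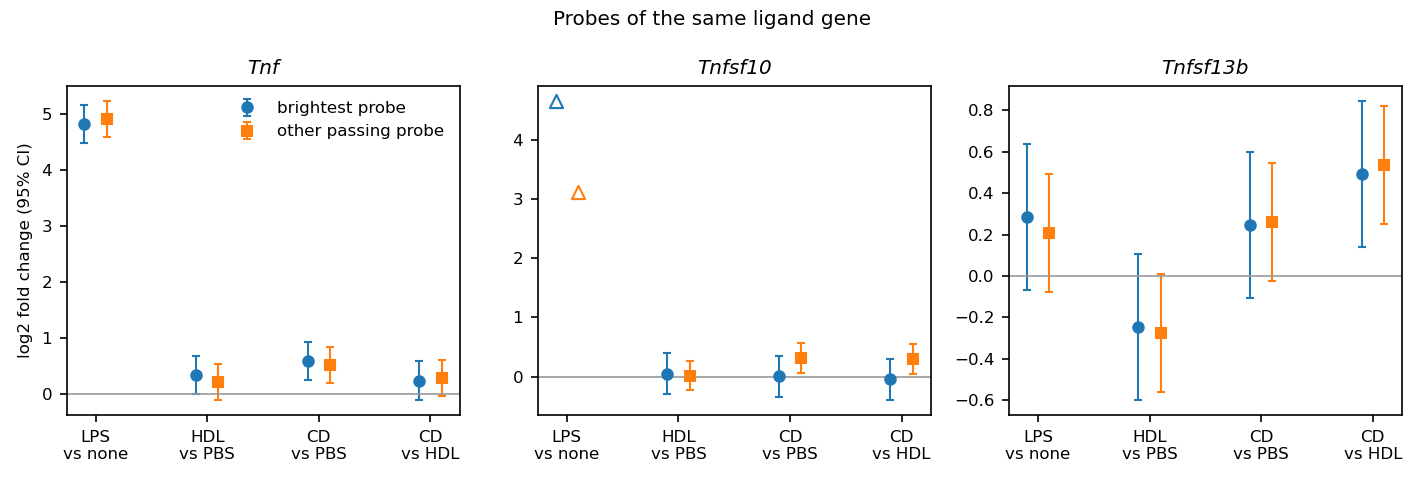
Log2 fold change with 95% confidence interval (y axis, its range set per gene) of the 2 passing probes of Tnf, Tnfsf10 and Tnfsf13b in the 4 comparisons (x axis; CD, cyclodextrin), with an open triangle and no interval where only a lower bound can be given. The probes of Tnf and Tnfsf13b lie close to each other, those of Tnfsf10 have bounds of 25.2-fold and 8.63-fold with LPS, and with cyclodextrin against PBS they read 0.00 and 0.31.

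By normalized level, the groups of Tnf ran from PBS without LPS through PBS LPS and HDL to cyclodextrin, with no overlap between neighbours. Before normalization its HDL and cyclodextrin arrays overlapped. Only the step to LPS and that from PBS to cyclodextrin were called. Between neighbours in that order, 65.2%, 26.0% and 24.4% of all tested genes did not overlap. Tnfsf15 ran in the same order, with overlap between HDL and cyclodextrin. For Tnfsf9 PBS LPS and HDL overlapped and cyclodextrin lay above both. For Tnfsf10 and Tnfsf4 the 3 LPS groups overlapped. Over the 9 LPS arrays, which come from 3 groups, the log2 signals of Tnf and Tnfsf15 correlated at r = 0.93 and Tnf and Tnfsf9 at 0.90. Tnfsf9 and Tnfsf15 correlated at 0.74, Tnfsf10 and Tnfsf4 at 0.67, and Tnfsf13b and Tnfsf4 at -0.65. The remaining pairs lay between -0.32 and 0.25. The differences between the 3 groups described above enter each r, so these values are not a separate result.

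The genes whose log2 signal over the 12 arrays was most like that of a ligand were taken by Pearson's r, a description that the step between arrays with and without LPS largely sets. For Tnf these were Ccrl2, an atypical chemoattractant receptor (0.998), F10, coagulation factor X (0.998), and Tent4a, a poly(A) polymerase (0.997). For Tnfsf10 they were Il15ra, the alpha chain of the interleukin 15 receptor, Phf11d and Parp12, an ADP-ribosyltransferase (each 0.998). For Tnfsf4 they were Nos2, the inducible nitric oxide synthase, Ifit1bl1 (each 0.997) and Rhbdf2 (0.996), and for Tnfsf13b Vti1a (0.92), Zic4 (0.91) and Med12 (0.89). The 9 LPS arrays were used only for ligands called between treatments under LPS, and the differences between those groups enter r. Over these arrays Tnfsf15 was most like Slc7a2, a cationic amino acid transporter (0.98), the chemokine Cxcl14 (0.96) and Lzic (0.95). Over the same arrays Tnf was most like Vopp1, Fabp3 and Gsta3 (each 0.98), and Tnfsf9 most like Hsd3b7, Gpr137b and Igsf11 (0.94 to 0.95).

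Of 11 other ligands of the family, 10 had a probe on the array and 4 passed the filter. The filter passed Lta and Tnfsf8 only through arrays with LPS, and Tnfsf14 through the 3 arrays without LPS and 1 HDL array, so these calls follow in part from the filter. With LPS, Lta, or lymphotoxin alpha, whose gene lies next to Tnf in RefSeq's gene order, was at least 3.36-fold higher (adjusted p = 1.64e-08). Tnfsf8, the CD30 ligand next to Tnfsf15, was at least 2.54-fold higher (adjusted p = 3.32e-06). Tnfsf14, or LIGHT, which costimulates T cells, was at least 2.01-fold lower (adjusted p = 2.39e-05), and Tnfsf11 was not called. In limma 0 of the 4 were called under HDL or cyclodextrin, where 1 and 0 had an unadjusted p under 0.05. Of all genes 60.6% were called with LPS, 1.90% under HDL and 5.07% under cyclodextrin. Under HDL and cyclodextrin 1751 and 1882 of 9795 had an unadjusted p under 0.05. Fasl, Cd70, Tnfsf18, Cd40lg and Eda were above background on no array, among them the neighbours of Tnfsf9 (Cd70) and Tnfsf4 (Tnfsf18). Ltb, the neighbour of Tnf on its other side, was above background on 2 of 3 PBS LPS arrays and on no other, and did not pass the filter.

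The receptors of the 7 ligands were read on the same arrays. Of all genes, 38.4% were called lower with LPS, 1.10% with HDL and 2.71% with cyclodextrin, and 1.24% were higher and 1.53% lower with cyclodextrin than with HDL. With LPS the TNF receptors Tnfrsf1b (3.33 ± 0.16, adjusted p = 2.05e-10) and Tnfrsf1a (1.05 ± 0.21, adjusted p = 0.000556) rose. Tnfrsf13b, or TACI, a receptor of BAFF, was lower (-0.34 ± 0.12, adjusted p = 0.0213), a call lost without array 3 (0.107) or array 7 (0.0666). The TRAIL receptor Tnfrsf10b (0.34 ± 0.34), the TWEAK receptor Tnfrsf12a (-0.27 ± 0.17) and the OX40 receptor Tnfrsf4 (0.07 ± 0.16) were not called. Tnfrsf25, the receptor of Tnfsf15, and the BAFF receptors Tnfrsf13c and Tnfrsf17 were above background on none of the 12 arrays.

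Tnfrsf9, or 4-1BB, the receptor of Tnfsf9, passed the filter through the PBS LPS group, where it is high, so its calls follow in part from the filter. It was above background on no array without LPS and read 5.67, 5.90 and 6.10 in PBS LPS cells, at least 1.57-fold higher (adjusted p = 6.74e-05). After HDL it read 5.59, 4.84 and 4.84, and only the first was above background. It was at least 1.41-fold lower than after PBS (adjusted p = 0.0417), a call lost in 13 of 22 alternative settings (adjusted p of 0.00922 to 0.154), among them 8 of the 12 that left out 1 array. After cyclodextrin it read 5.14, 5.26 and 4.90, above background on no array, and was at least 1.37-fold lower (adjusted p = 0.0227). That call was lost in 6 of 22 settings (0.00441 to 0.0948), among them those without PBS LPS array 8 (0.0712) or 9 (0.0863) and without cyclodextrin array 22 (0.0562) or 24 (0.0948). Tnfsf9 itself was above background on all of these arrays and was higher with cyclodextrin.

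Tnfrsf13b read 10.05, 9.78 and 9.73 after HDL and 9.33, 9.40 and 9.33 after cyclodextrin. It was lower with cyclodextrin than with HDL (-0.50 ± 0.12, adjusted p = 0.0393), a call lost in 11 of 23 settings (0.0107 to 0.139). Its dimmer probe, above background on 1 of 3 HDL and 0 of 3 cyclodextrin arrays, was not called in the fit by probe, where 2.12% of all probes were called.

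**Figure D4:**
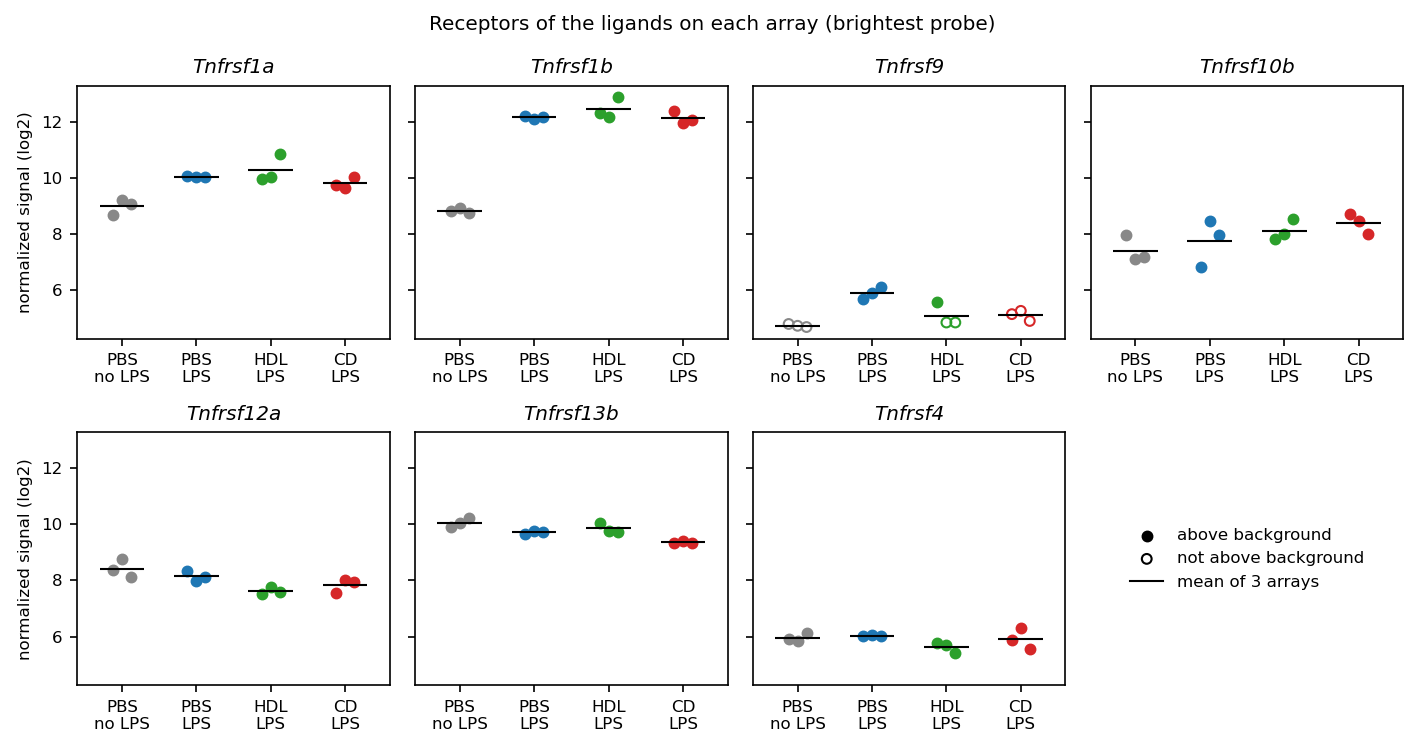
Normalized log2 signal (y axis) of the brightest probe of the 7 receptors of the ligands that passed the filter, on the 12 arrays by group (x axis, CD for cyclodextrin), with 1 point per array, open where not above background, and a line at the mean of 3 arrays. Tnfrsf1a and Tnfrsf1b lie higher with LPS, and Tnfrsf9 is above background on the 3 PBS LPS arrays and 1 HDL array.

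Of all 28 receptors of the family 15 were tested, and 8 rose and 4 fell with LPS, with a median log2 fold change of 0.59 against -0.14 over all genes, of which 22.2% rose and 38.4% fell. Cd40, a receptor through which T cells activate macrophages, rose by 5.96 ± 0.09 and Fas, a death receptor, by 3.87 ± 0.13. Tnfrsf21, or death receptor 6, fell (-1.30 ± 0.15), as did Tnfrsf26 (-1.24 ± 0.24) and Tnfrsf22 (-0.59 ± 0.16), a decoy receptor of TRAIL. The 3 probes of Tnfrsf22 disagreed, at -0.59, -0.11 and 0.51, and their mean was not called (-0.06, adjusted p = 0.695). Under cyclodextrin, Tnfrsf26 was higher than with PBS (0.97 ± 0.24, called in 16 of 23 settings, adjusted p of 0.00523 to 0.121) and than with HDL (0.96 ± 0.24, called in 12 of 23, 0.0132 to 0.173). Cd40 was higher with cyclodextrin by 0.35 ± 0.09 (adjusted p = 0.0473), but called in 11 of 23 settings and on none of its 5 probes in the fit by probe.

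Proteins that free or carry the ligands, signal below their receptors or control Tnf messenger RNA were counted in the same way. Of 7 tested sheddases and traffic genes 5 rose and 1 fell with LPS (median 1.18 against -0.14 over all genes, of which 22.2% rose and 38.4% fell). They include Rhbdf2, which brings the Tnf sheddase Adam17 to the surface (2.60 ± 0.14), Sppl2a, which cuts the stub of Tnf that is left in the membrane (1.94 ± 0.40 on its brightest probe), and Furin, a convertase (1.56 ± 0.14), while Sppl2b fell (-0.45 ± 0.12). The other 2 probes of Sppl2a were above background on 0 of 3 arrays without LPS, and 1 of them was at least 1.49-fold higher with LPS. Adam17, named after its value was seen, rose by 1.18. In limma 0 of the 7 were called under HDL or cyclodextrin, where 1 in each had an unadjusted p under 0.05. Of all genes 1.90% were called under HDL and 5.07% under cyclodextrin, and 1751 and 1882 of 9795 had an unadjusted p under 0.05.

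Of 18 adaptors and kinases 13 rose and 1 fell with LPS, against 22.2% and 38.4% of all genes (median 0.98, or 0.79 with the 2 genes that have only a bound set at it). The signalling adaptor Traf1 rose by 5.85 ± 0.16, although by 3.85 on its other probe, and the feedback inhibitors Tnfaip3, or A20, by 3.37 ± 0.13 and Tnip1 by 2.46 ± 0.15. The death adaptor Fadd fell (-1.06 ± 0.11). Under cyclodextrin Birc2, a ubiquitin ligase of the TNF receptor complex, was higher by 0.52 ± 0.12 (adjusted p = 0.0226), in 16 of 23 settings and on 1 of its 4 probes.

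Of 8 regulators of Tnf messenger RNA or protein, 3 rose and 2 fell with LPS (median 0.088). With 5 of 8 called, the share is near the 60.6% of all genes called. Zc3h12a, or regnase 1, an RNase that limits cytokine messages, rose by 3.80 ± 0.16 and Zfp36, or tristetraprolin, which speeds the decay of Tnf messenger RNA, by 3.23 ± 0.10. Zfp36l1, a relative of Zfp36, fell (-4.51 ± 0.18). Rc3h1, or roquin 1, was at least 1.25-fold higher with LPS (adjusted p = 0.0235, lost in 7 of 22 settings), and Tia1, which holds back Tnf translation, was lower (-0.30 ± 0.11, lost in 5 of 22 settings). Rc3h1 was also higher with HDL than with PBS (0.73 ± 0.16, called in 15 of 23 settings, adjusted p of 0.00990 to 0.158).

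**Figure D5:**
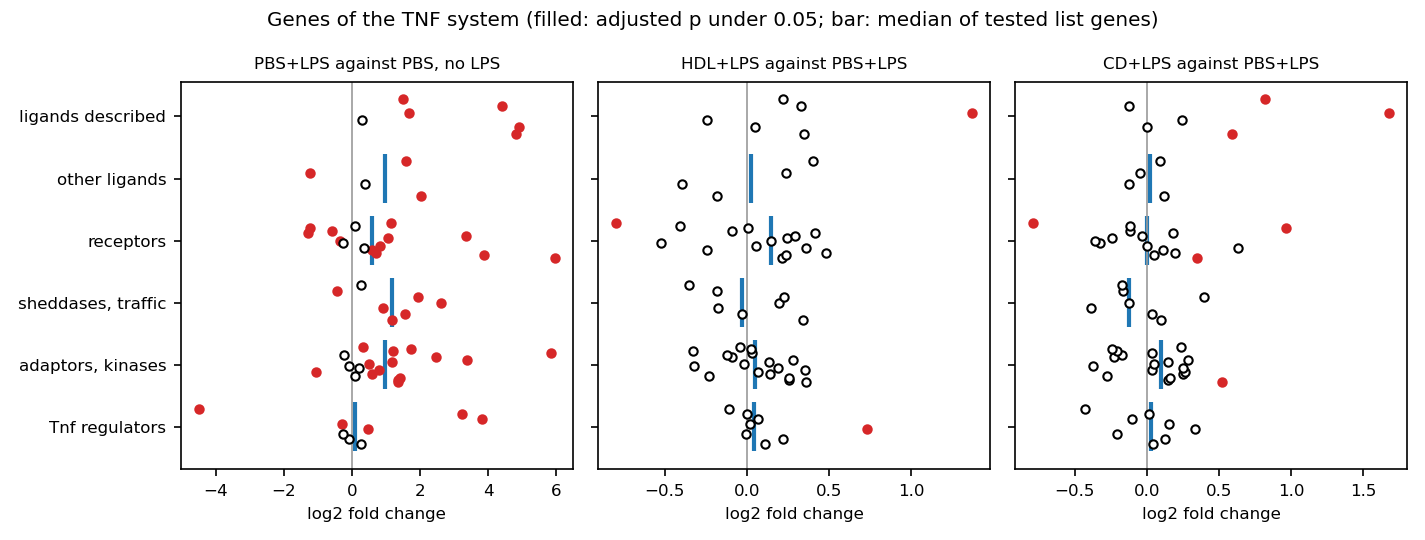
Log2 fold change (x axis) of each tested gene in the described ligands and the 5 lists of the TNF system (y axis) for LPS, HDL and cyclodextrin (CD), filled where the adjusted p was under 0.05, with a bar at the median of each list other than the described ligands (fitted values, also for genes with only a bound). Filled points are many with LPS and few under HDL and cyclodextrin, where Tnfsf15 stands farthest to the right.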

How the data were processed

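RNA of 12 macrophage samples was hybridised to Illumina bead arrays, and the authors' software was GenomeStudio per the submitters' processing notes. The deposited table gives a signal intensity and a detection p-value for each of 45281 probes per array. Most deposited intensities had lost their decimal mark. Marks were kept in 2.02% of values and rebuilt from the detection p-value and the number of digits in 77.1%. A further 20.4% were placed by each array's curve of the authors' processed value against the signal, and 0.496% from the other arrays. A hidden test of the curve and other-array steps used kept values only, and 0 of 2034 came out wrong. The placing by detection p-value or digits was not tested in this way. Of the ligand values, 19 kept the mark, 45 were placed by p-value or digits and 68 by the curve. The function neqc corrected the background and quantile-normalized the arrays (offset 16). Probes with a detection p under 0.05 on at least 3 arrays were kept (18364). Of all probes, 34885 had 1 symbol, 18 several and 10378 none. The brightest probe stood for each of 9795 genes, and limma 3.58.1 in R 4.3.3 was fitted over all 12 arrays (8 residual and 6.06 prior degrees of freedom) with Benjamini-Hochberg adjustment at 0.05. A second fit used all 15497 passing probes with 1 symbol. Precision is limited by how many arrays there are. The ligands, gene lists and naming rule were chosen with earlier results of these data known. Listed genes named with values are the 3 most changed called genes in each direction, the ligands' receptors, and those said to be named otherwise. No 2 arrays held identical values. Alternatives were another background correction, scaling, offset, filter, probe rule, array weights, fewer groups and leaving out each array. The fit on the 9 LPS arrays, and alternatives for genes other than the ligands, were added after seeing the data.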

Additional observations from a re-analysis of the deposited data

Results flagged for a closer look

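Receptor genes of the family differed between the treatments in the test of cyclodextrin with LPS against HDL with LPS. Tnfrsf13b was lower with cyclodextrin, by -0.50 ± 0.12 (SE, n = 3 per group, limma adjusted p = 0.0393), on all 3 arrays. Tnfrsf26 was higher by 0.96 ± 0.24 (adjusted p = 0.0459). Each was called in 12 of 23 alternative settings. Contact time and compound cannot be told apart in either.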

How the results depend on the processing

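Of 24 results for the ligand genes, 18 stayed on 1 side of the threshold in every setting. Against HDL, cyclodextrin gave 1 called ligand gene in place of 0 without background correction, with normexp, median scaling, an offset of 50, the authors' processed values or array weights, and 0 to 1 when 1 array was left out. Against PBS it gave 1 to 3 ligand genes with 1 array left out, and 1 without PBS LPS array 8 or cyclodextrin array 22. No difference was called in a setting that turned its direction. These were Tnfsf13b with LPS under median scaling (-0.18), which array weights called in the other direction (0.48), and Tnfsf10 under HDL without array 18 (-0.023, and -0.023 to 0.14 over single arrays left out), under cyclodextrin with median scaling (-0.13) or without array 8 (-0.041), 22 (-0.027) or 24 (-0.12; range -0.12 to 0.16), and for cyclodextrin against HDL with array weights (0.073), the mean of probes (0.12), or without array 18 (0.027) or 23 (0.11; range -0.17 to 0.11). Calls over all genes for HDL were 186, and 284 without background correction, 282 with normexp, 102 without the filter, 573 with array weights, 80 with only both groups, and 36 to 227 with 1 array left out. For cyclodextrin they were 497, 925 with array weights and 235 to 598 with 1 array left out. For cyclodextrin against HDL they were 271, 682 with median scaling, 424 with array weights, 75 with only both groups and 122 to 367 with 1 array left out. The cause was not tested. No paired analysis was possible because the labels do not say whether samples of different groups share a mouse or culture. Probes below background have only a bound.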
